A study of Mus musculus with 12 samples.

Results

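The genes described here are 10 immediate early transcription factors of mouse liver: Fos, Fosb, Jun, Junb, Jund, Egr1, Ier2, Atf3, Myc and Klf6. They were chosen by symbol, with no measured value in the rule, and each matched exactly 1 of the 57010 rows of the expression table. Of the 12 liver libraries, 6 came from mice given Aspergillus oryzae A02, a filamentous food fungus, enriched in selenium, at 0.5 mg/kg selenium in saline by gavage every day (the selenium group), and 6 from mice labelled as having no treatment (the control group). Both groups were male wild-type C57BL/6J mice, 6 weeks old when assigned after 7 days of acclimatization, and both ate a normal diet. The labels do not say whether controls received saline by gavage. The design text gives the treatment as 8 weeks, the sample descriptions carry a 14-weeks tag whose meaning they do not give, and 10 mice per group were assigned, of which 6 samples per group are analysed here. The labels number these as separate liver samples without naming animals, so p-values measure the spread between samples. Fungus and selenium were given as one agent, so the comparison cannot separate them.

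Values are TPM, a relative level corrected for transcript length, so levels can be compared between genes. TPM is scaled to one fixed library total, so the read depth behind a value is unknown. The cell type label reads hepatocyte, but all 8 hepatocyte markers and all 11 Kupffer cell markers were measured above the low-value filter, as were 7 of 10 sinusoidal endothelial and 6 of 10 stellate cell markers, so the libraries are described as liver tissue. In such tissue, fewer cells of a type and less RNA per cell cannot be told apart. Mitochondrial-encoded transcripts took 8.10 to 13.8% of TPM in selenium livers and 13.3 to 22.8% in control livers. Malat1, a nuclear non-coding RNA, was at 5.72 to 11.7 TPM in selenium livers and 17.6 to 61.6 TPM in control livers, without overlap, and the part of RNA composition or quality in the results was not tested. The clock output gene Dbp set 4 libraries apart, at 31.5 and 53.6 TPM in selenium 1 and 5 and at 15.7 and 28.5 TPM in control 5 and 6, against 0.72 to 1.44 TPM in the other 8. Selenium 3 and control 5 stood apart in the acute phase gene Saa1, at 8641 and 4541 TPM, against 62.6 to 1020 TPM in the other 10 libraries. Results that rest on these libraries are given with and without them. The sets split by Dbp are the exception and were not refitted without selenium 3 or control 5.

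Immediate early genes are transcribed within minutes of a stimulus from factors already present in the cell, and their mRNAs and proteins are short-lived. FOS and JUN proteins pair through leucine zippers to form AP-1, and FOS proteins do not pair with each other while JUN proteins can. EGR1 and KLF6 are zinc finger factors, ATF3 is a stress-induced relative of AP-1 that often represses, and MYC pairs with MAX to drive growth genes. In liver this class is known for its transient induction after partial hepatectomy, injury, feeding and hormone signals, and c-Jun is needed for normal hepatocyte proliferation in regeneration.

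The promoters of Fos and Klf6 and of Junb and Atf3 are shown because these were the pairs whose transcripts varied together most closely between livers, and that of Jun because its ratio to Junb is described further on. Each sequence is the 250 bases before the RefSeq start site on GRCm38.p6, read 5′ to 3′ on the gene's strand, and capitals mark the core of the cAMP response element, TGACG on either strand, or its palindromic relative TGANNTCA. The windows are chr12:85473640-85473889 on the plus strand for Fos, chr13:5861239-5861488 plus for Klf6, chr8:84978749-84978998 minus for Junb, chr1:191183334-191183583 minus for Atf3 and chr4:95052223-95052472 minus for Jun.
Fos: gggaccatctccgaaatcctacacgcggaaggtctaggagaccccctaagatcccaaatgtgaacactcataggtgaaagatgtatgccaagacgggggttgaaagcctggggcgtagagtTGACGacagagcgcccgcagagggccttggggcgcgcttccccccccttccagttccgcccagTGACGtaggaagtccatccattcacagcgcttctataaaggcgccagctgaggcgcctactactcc
Klf6: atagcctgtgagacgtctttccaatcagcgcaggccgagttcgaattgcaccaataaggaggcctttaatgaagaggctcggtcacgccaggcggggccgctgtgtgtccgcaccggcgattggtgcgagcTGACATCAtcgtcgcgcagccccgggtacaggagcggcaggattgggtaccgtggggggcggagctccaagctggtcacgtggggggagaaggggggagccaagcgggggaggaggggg
Junb: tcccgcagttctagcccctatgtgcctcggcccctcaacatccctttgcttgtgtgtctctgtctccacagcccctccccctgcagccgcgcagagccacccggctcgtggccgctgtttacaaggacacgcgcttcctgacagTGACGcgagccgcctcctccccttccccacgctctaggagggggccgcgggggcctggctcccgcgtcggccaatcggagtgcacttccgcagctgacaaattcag
Atf3: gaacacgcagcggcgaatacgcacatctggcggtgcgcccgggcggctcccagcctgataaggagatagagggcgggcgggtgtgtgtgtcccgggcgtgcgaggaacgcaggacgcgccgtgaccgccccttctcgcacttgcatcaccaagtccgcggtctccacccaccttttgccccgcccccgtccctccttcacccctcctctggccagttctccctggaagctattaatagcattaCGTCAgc
Jun: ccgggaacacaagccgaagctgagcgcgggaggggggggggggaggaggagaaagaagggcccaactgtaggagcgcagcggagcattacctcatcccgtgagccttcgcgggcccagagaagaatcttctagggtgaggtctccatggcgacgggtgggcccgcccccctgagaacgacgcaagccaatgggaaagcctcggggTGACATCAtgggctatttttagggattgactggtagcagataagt

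Fos held TGACG at 2 places, at positions -129 and -66 relative to the start site, and a TATA box (TATAAA) at -33. The Atf3 match, CGTCA on the shown strand, began at -7. Klf6 and Jun held the same 8 letters, TGACATCA, at -119 in Klf6 and -45 in Jun. RefSeq's table held 7 of the 10 members (these 5, Fosb and Jund). TGACG stood in 4 of the 7 and in 17.8% of all 32851 promoters of the same length, and TGANNTCA in 3 of the 7 and in 11.9% of all. The full element TGACGTCA, which both motifs match, was in 0 of the 7 and 1.55% of all, the AP-1 site TGANTCA in 0 and 6.75%, and the CArG box, the site of serum response factor, in 0 and 1.47%. The GC box GGGCGG was in 5 of the 7 and 32.7% of all, and the E-box CACGTG in 1, Klf6, and 6.02%. All motifs were searched on both strands in these windows, and a match is a description of letters. Sites outside the 250 bases, and the promoters of Egr1, Ier2 and Myc, were not searched. An absent motif, the CArG box included, is therefore absent from these windows only.

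The members were low to moderate in liver and spanned a wide range. Jund, the JUN protein that dampens growth and is present in resting cells, had the highest level, with a mean of 14.5 TPM over the 12 libraries and more TPM than 71.5% of the genes tested. Junb (6.79 TPM), Ier2 (6.15 TPM) and Jun (5.67 TPM) came next, Klf6 (1.77 TPM), Myc (1.47 TPM), Atf3 (1.27 TPM) and Egr1 (1.2 TPM) formed a lower tier, and Fos (0.625 TPM) was lower still. Fosb was listed at 0 to 0.15 TPM. Between neighbours in this order, Jund exceeded Junb and Jun exceeded Klf6 in 12 of 12 libraries, Egr1 exceeded Fos in 11 of 12 and Fos exceeded Fosb in 12 of 12 (adjusted p = 0.00146, 0.00146, 0.00220 and 0.00146, exact paired sign-flip test on log2(TPM + 1), two-sided, Benjamini-Hochberg over 9 neighbour pairs). The other neighbours did not differ beyond their spread (adjusted p from 0.385 to 0.880 by the same exact test). The order thus had steps below Jund, below Jun, below Egr1 and below Fos.

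**Figure D1:**
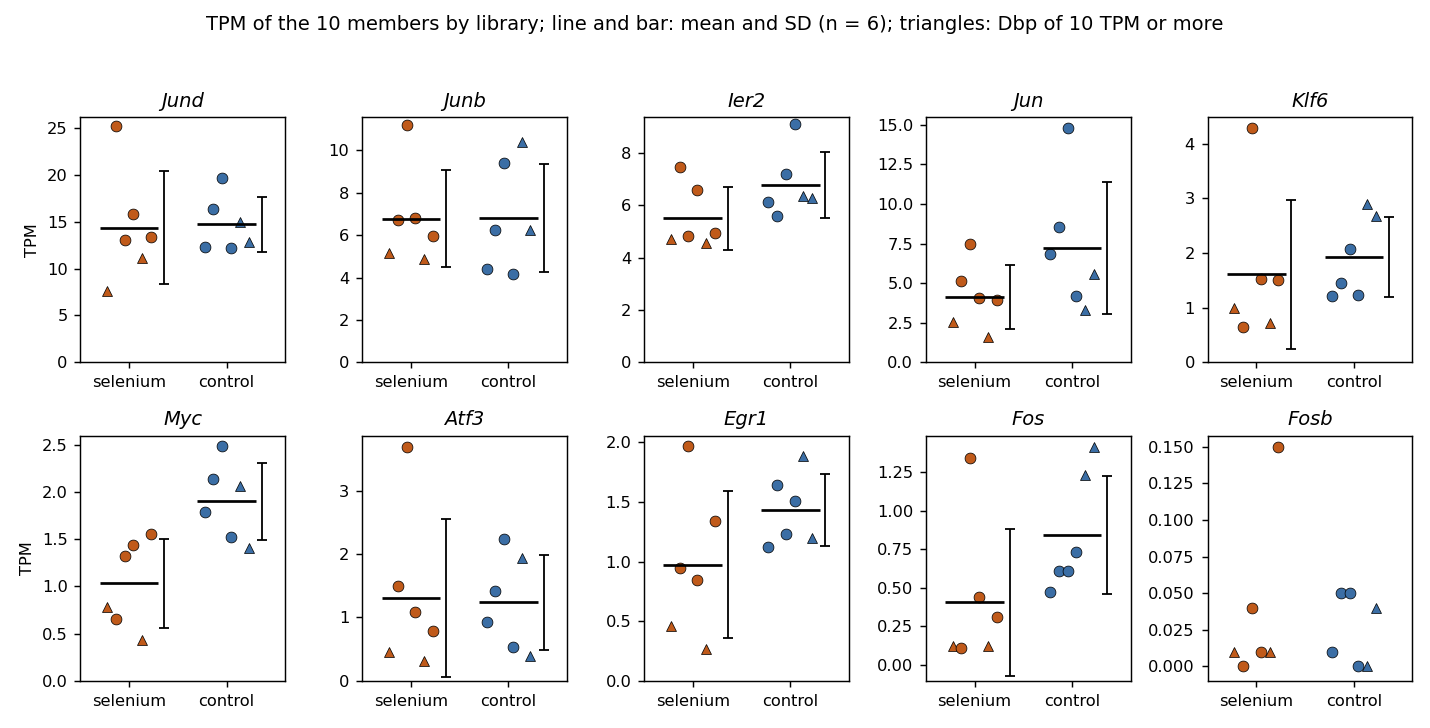
TPM of each member (y axis) in every selenium and control library (points), with the group mean as a line and the SD as a bar (n = 6 per group; no mean is drawn for Fosb). Triangles are the 4 libraries with Dbp of 10 TPM or more. Selenium 3 is the highest selenium point for Fos (1.34 TPM), Atf3 (3.68 TPM) and Klf6 (4.28 TPM), and 4 of the 6 control livers lie above every selenium liver for Myc.

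The comparison of selenium with control asks whether liver expression of these factors differed after the fungus was given. Of the 10 members, 8 passed the low-value filter (at least 1 TPM in 6 or more libraries), and 0 of the 8 passed limma's test on log2(TPM + 1) at a Benjamini-Hochberg adjusted p of 0.05, against 33 of 9980 genes in all, or 0.331% (lower with selenium in 0.311%). That count of 33 ran from 7 to 171 when 1 library was left out. At an unadjusted p under 0.05, 1 of the 8, Myc, was lower and 0 were higher, against 11.4% of tested genes lower and 7.01% higher. The log2 change, selenium minus control, was negative in 7 of the 8 with a median of -0.26 over the 8, and in 54.6% of all genes tested with a median of -0.03. The groups overlapped for all 10 members, while they did not overlap for 1.63% of all tested genes.

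Fos was lower in most selenium livers, selenium 3 being the exception. Fos, the founding partner of JUN in AP-1, stood at 0.11 (lowest), 0.215 (median) and 1.34 TPM (highest) in selenium livers, against 0.47, 0.67 and 1.41 TPM in control livers. In this gene 5 of the 6 selenium livers lay below the lowest control, and the remaining one, selenium 3, lay near the top of the control range. The means were 0.407 ± 0.476 TPM in selenium and 0.843 ± 0.383 TPM in control livers (SD, n = 6 each), a log2 difference of -0.42 on the log2(TPM + 1) scale (exact permutation p = 0.0736). Fos reached 1 TPM in only 3 libraries and so stayed under the filter. In a limma fit without the filter its interval was -0.85 to 0.01 (adjusted p = 0.418). This scale understates the change of so low a gene, and with a pseudocount of 0.1 the log2 difference was -1.2 (limma adjusted p = 0.337 without the filter). Without selenium 3 the highest selenium value was 0.44 TPM, the groups no longer overlapped and the difference was -0.58 (exact permutation p = 0.00433, n = 5 and 6, limma adjusted p = 0.215). Selenium 3 was the only selenium liver within the control range, so this separation follows from leaving it out and is not separate support. The share of all genes whose groups separate without selenium 3 was not computed.

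Fosb, a FOS protein best known in brain, was near the limit of detection. It was listed at 0.01, 0, 0.04, 0.01, 0.01 and 0.15 TPM in selenium 1 to 6 and at 0.01, 0.05, 0.05, 0, 0 and 0.04 TPM in control 1 to 6. No difference could be read at this level (exact permutation p = 0.764, n = 6 each).

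Of the 3 JUN genes, Jun had the largest difference between groups, while Junb and Jund had nearly equal group means. Jun, the main activating JUN protein, stood at 1.62, 3.99 and 7.45 TPM (lowest, median and highest) in selenium livers, against 3.31, 6.21 and 14.8 TPM in control livers. The ranges overlapped, with 2 selenium livers below every control and 2 control livers above every selenium liver. Its means were 4.12 ± 2.04 TPM in selenium and 7.22 ± 4.16 TPM in control livers (SD, n = 6 each), a log2 change of -0.65 (95% interval -1.32 to 0.03, limma adjusted p = 0.295). The change was -0.43 without control 3, the highest Jun library. An antisense transcript, Junos, overlaps Jun on the other strand and was at 0.62 TPM or less in every library.

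Junb, which can oppose Jun in growth control, stood at 4.86, 6.34 and 11.2 TPM in selenium livers, against 4.18, 6.26 and 10.4 TPM in control livers. The groups covered much the same range, with means of 6.78 ± 2.30 TPM in selenium and 6.81 ± 2.56 TPM in control livers and a log2 change of 0.01 (interval -0.46 to 0.49, limma adjusted p = 0.985). Junb overlaps Prdx2, a peroxiredoxin gene on the opposite strand that reached 85.0 TPM in selenium and 88.3 TPM in control livers. No source here says if reads were assigned by strand, so reads of the overlapping pairs cannot be told apart. Jund stood at 7.56, 13.2 and 25.2 TPM in selenium livers, against 12.2, 13.9 and 19.7 TPM in control livers, and the selenium values reached further both ways. Its log2 change was -0.10 (interval -0.56 to 0.37, limma adjusted p = 0.853).

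Within a library, the ratio of Jun to Junb does not depend on how TPM is scaled. This ratio, chosen after the values were seen, was 0.333 to 0.768 in selenium livers and 0.319 to 1.58 in control livers, with means of 0.586 ± 0.153 in selenium and 1.12 ± 0.484 in control livers (SD, n = 6 each). Among controls 5 of 6 livers had a ratio above every selenium liver, and control 5 had the lowest ratio of all. The log2 ratio differed by -0.81 (exact permutation p = 0.0779, adjusted p = 0.155 over 5 ratios). Without control 5 the log2 ratio of Jun to Junb differed by -1.14 (exact permutation p = 0.00216, the smallest that 6 against 5 libraries can give). Among the 8 libraries with low Dbp, which also exclude control 5, it differed by -1.02 (exact permutation p = 0.0286, the smallest that 4 against 4 can give). Control 5 was the only control not above every selenium liver, so both p follow from its absence and are not separate support. Leaving out each of the other libraries in turn gave -0.90 to -0.66 with exact permutation p from 0.0714 to 0.141, and the 4 libraries with high Dbp gave -0.39 (exact permutation p = 1.0). The ratio of Jun to Jund averaged 0.301 ± 0.147 in selenium and 0.473 ± 0.184 in control livers, with a log2 difference of -0.68 (exact permutation p = 0.0931, adjusted p = 0.155). It differed by -0.88 without control 5 and by -0.89 without selenium 3 (exact permutation p = 0.0346 and 0.0281), and by -0.75 to -0.50 with each of the others left out in turn (exact permutation p from 0.0931 to 0.188). For the same ratio the log2 difference was -0.78 with low Dbp and -0.48 with high Dbp (exact permutation p = 0.114 and 0.667). The ratios of Junb to Jund, Fos to Jun and Fos to Jund had an adjusted p of 0.660, 0.317 and 0.155 by the same exact permutation test.

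**Figure D2:**
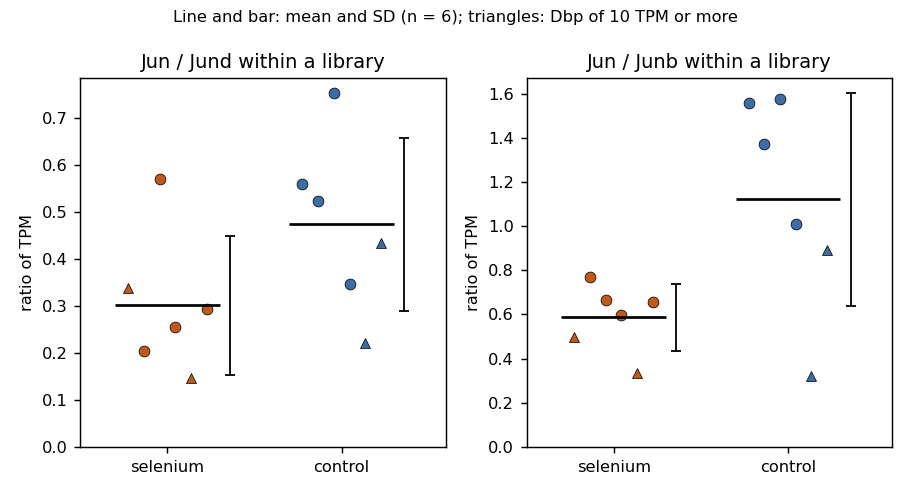
Ratio of TPM of Jun to Jund (left) and of Jun to Junb (right) in each selenium and control library, with the mean as a line and the SD as a bar (n = 6 per group). In the right panel 5 of 6 control livers lie above every selenium liver, whose highest ratio is 0.768.

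Myc had the smallest p of the 10. MYC drives ribosome production and cell growth and is kept low in resting hepatocytes. Myc stood at 0.43, 1.05 and 1.56 TPM (lowest, median and highest) in selenium livers, against 1.41, 1.93 and 2.49 TPM in control livers. All 6 selenium livers lay below the control median and 4 of 6 control livers lay above every selenium liver. The means were 1.03 ± 0.467 TPM in selenium and 1.90 ± 0.407 TPM in control livers (SD, n = 6 each), a log2 change of -0.54 (95% interval -0.87 to -0.20). The unadjusted p was 0.00415 and the adjusted p 0.117 in limma, while the exact permutation test gave p = 0.0108 and, adjusted over all genes, 0.186. The change was -0.61 to -0.44 when 1 library was left out and was negative under all 25 alternatives that measured it.

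For Egr1 and Ier2 the interval of the difference included 0. EGR1 is a zinc finger factor switched on by ERK signalling and growth factors. Egr1 stood at 0.27, 0.90 and 1.97 TPM in selenium livers, against 1.12, 1.37 and 1.89 TPM in control livers. Below every control lay 4 selenium livers, and selenium 3 lay above every control. The log2 change of Egr1 was -0.35 (interval -0.74 to 0.04, limma adjusted p = 0.325), and -0.48 without selenium 3 (limma adjusted p = 0.165). Ier2, an early response nuclear protein, had the lowest relative spread of the tested members, at 4.56, 4.89 and 7.46 TPM in selenium livers, against 5.59, 6.31 and 9.12 TPM in control livers. For Ier2, too, 4 selenium livers lay below every control, and selenium 2 and 4 lay within the control range. The log2 change of Ier2 was -0.26 (interval -0.56 to 0.04, limma adjusted p = 0.343).

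Klf6 and Atf3 had wide spreads that 1 library widened further. KLF6 is a zinc finger factor induced by liver injury, in stellate cells and hepatocytes among others. Klf6 stood at 0.64, 1.25 and 4.28 TPM in selenium livers, against 1.21, 1.77 and 2.89 TPM in control livers, with 3 selenium livers below every control and selenium 3 above all of them. The log2 change of Klf6 was -0.25 (interval -0.80 to 0.30, limma adjusted p = 0.636), and without selenium 3 it was -0.48 (limma adjusted p = 0.218). ATF3 is induced by amino acid shortage, endoplasmic reticulum stress and toll-like receptor signals. Atf3 stood at 0.32, 0.935 and 3.68 TPM in selenium livers, against 0.39, 1.17 and 2.23 TPM in control livers, so the selenium range enclosed the control range. The log2 change of Atf3 was -0.03 (interval -0.65 to 0.60, limma adjusted p = 0.976).

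**Figure D3:**
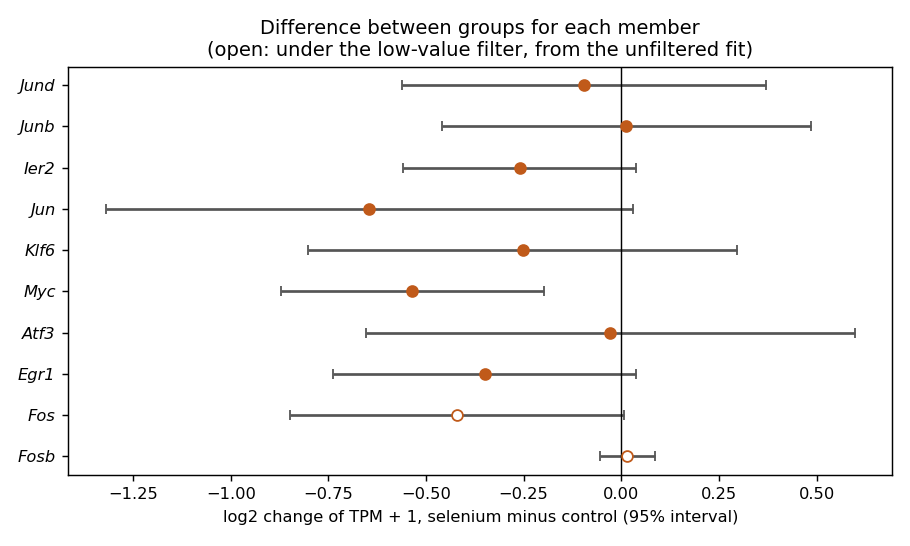
Log2 change of TPM + 1, selenium minus control, for each member (points) with its 95% interval from limma (bars). Open points are Fos and Fosb, taken from the fit without the low-value filter; the interval of Myc, -0.87 to -0.20, is the one that excludes 0, before adjustment over all genes.

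The authors' own test called 1 member. In the authors' deposited table, whose sign is turned here to selenium over control, Myc had a log2 fold change of -0.83 with an adjusted p of 0.0405. The authors' deposited table called 2.9% of the 9980 genes tested here lower with selenium and 9.87% in either direction at an adjusted p under 0.05. Over the 26179 genes above 0 TPM in any library, which include Fos and Fosb, the authors' deposited table called 1.98% lower and 4.7% in either direction. Fos (-1.26, adjusted p = 0.0772) and Jun (-0.79, adjusted p = 0.130) came next in the authors' deposited table. The other 7 members had an adjusted p of 0.277 or more in the authors' deposited table, with log2 fold changes from -0.58 for Egr1 to 0.22 for Atf3.

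The selenium group held both the lowest and some of the highest libraries for these genes. Selenium 1 or 5 was the lowest selenium library for 7 of the 8 members past the filter, which is also so for 62.5% of all tested genes. Selenium 3 was the highest selenium library for 5 of the 8, against 35.1% of all tested genes. Control 3 was the highest control library for 4 of the 8 (Jun, Jund, Atf3 and Myc), against 11.1%. The mean of the 8 on the log2 scale, relative to the average library, was -0.51 and -0.62 in selenium 1 and 5, -0.10 to 0.01 in selenium 2, 4 and 6, 0.43 in selenium 3 and -0.10 to 0.50 in control livers. Relative to their mean, most members varied more between livers than a typical gene: the coefficient of variation over the 12 libraries was 76.8% for Atf3, 62.1% for Jun and 59.8% for Klf6, against a median of 23.1% over all tested genes. Ier2, at 21.9%, was the exception among the 8. Egr1, Atf3, Myc and Klf6 were low, with more TPM than only 4.01% (Egr1) to 14.0% (Klf6) of tested genes. Members were not compared with genes of like level, and the part of low level in these spreads was not tested.

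**Figure D4:**
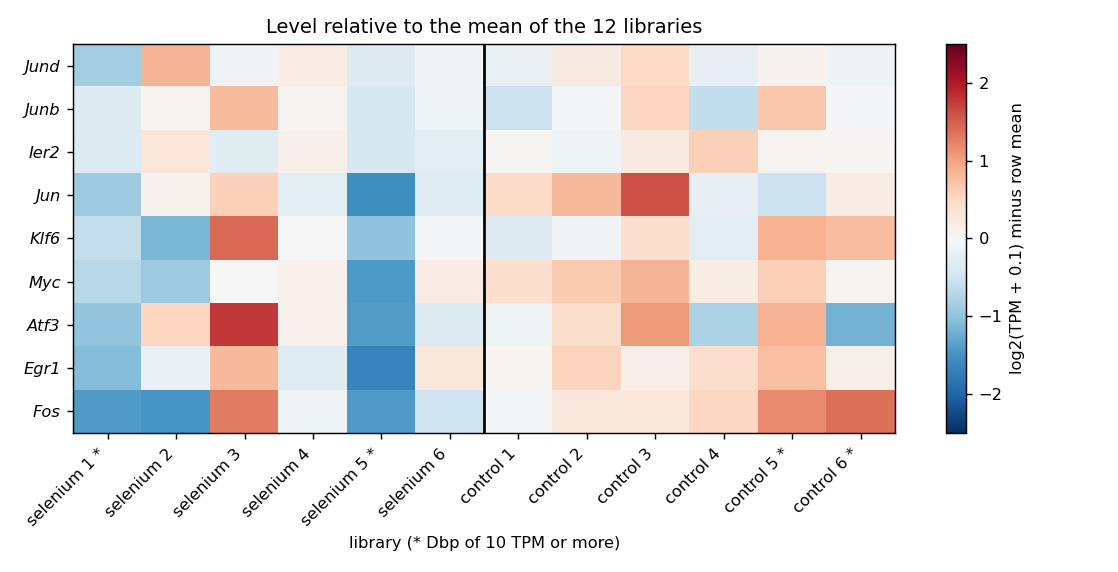
Level of 9 members (rows, Fosb left out) in each library (columns, selenium left, control right) as log2(TPM + 0.1) minus the mean of the row; asterisks mark Dbp of 10 TPM or more. Selenium 1 and 5 are low (blue) in all 9 rows, selenium 3 is high (red) for Atf3, Klf6 and Fos, and control 3 is high for Jun.

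The log2 change of each of the 8 members past the filter was lower with high than with low Dbp, but 0 genes passed a test of this difference. The median log2 change over all tested genes was also lower, at -0.17 with high and 0.06 with low Dbp. Between selenium 1 and 5 and control 5 and 6, the 4 libraries with high Dbp, both selenium livers lay below both control livers for 7 of the 8 members past the filter, all but Atf3, against 35.6% of all tested genes. With 2 against 2 libraries no exact permutation test can go below p = 0.333. Fos was at 0.12 TPM in both selenium livers of this set and at 1.23 and 1.41 TPM in its controls, and Klf6 at 0.72 to 0.99 TPM in selenium and 2.68 to 2.89 TPM in control livers. In the 8 libraries with low Dbp, Fos was at 0.11 to 1.34 TPM in selenium and 0.47 to 0.73 TPM in control livers, with a log2 difference of -0.11 (exact permutation p = 0.686, n = 4 each). The value of 1.34 TPM was that of selenium 3, while selenium 2, 4 and 6 were at 0.11, 0.44 and 0.31 TPM, below every control of this set. The log2 change of Klf6 was -1.03 in the high-Dbp set and 0.14 in the low-Dbp set, and that of Egr1 -0.89 and -0.08. In a limma fit with an interaction term, added after the data were seen, these differences between the sets were -1.17 and -0.81 (unadjusted p = 0.0326 and 0.0169, adjusted p = 0.506 and 0.466), and 0 of 9980 genes passed, with 965 at an unadjusted p under 0.05. Selenium 3, high in Saa1, was in the low-Dbp set, with Klf6 at 4.28 TPM and Egr1 at 1.97 TPM. Selenium 2, 4 and 6 were at 0.64, 1.52 and 1.51 TPM for Klf6 and at 0.95, 0.85 and 1.34 TPM for Egr1. Control 5, also high in Saa1, was in the high-Dbp set. The sets were not refitted without selenium 3 or control 5. Myc and Jun differed in the same direction in both sets, by -0.77 and -0.42 for Myc and by -0.80 and -0.57 for Jun in the high and low sets. For Myc, selenium livers with low Dbp were at 0.66 to 1.56 TPM, against 1.52 to 2.49 TPM in control livers (exact permutation p = 0.0571, n = 4 each). The sets were not matched for every clock gene: Nr1d1, which encodes the clock repressor REV-ERB alpha, was at 8.6 to 18.1 TPM in the 4 selenium livers with low Dbp and at 1.04 to 2.92 TPM in the 4 control livers with low Dbp, without overlap. The labels give no hour of sampling, and the part of the clock in these values was not tested.

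Selenium 3 and control 5 shared a second feature. They were the top 2 of the 12 libraries for Junb, Egr1 and Klf6, as for 3.50% of all tested genes. Both also carried more of several acute phase, neutrophil and other marker transcripts: Lcn2, a secreted iron-binding protein that hepatocytes make too, was at 1410 TPM in selenium 3 and 1792 TPM in control 5, against at most 398 TPM in the other 10, and S100a9 at 45.2 and 52.8 TPM, against at most 12.6 TPM. Summed over the 8 neutrophil markers, levels were 14.8 to 1482 TPM in selenium and 20.0 to 1890 TPM in control livers. Lcn2 alone held 1410 of the 1482 TPM in selenium 3 and 1792 of the 1890 TPM in control 5. Ly6g, the marker that defines mouse neutrophils, stayed at 0.23 TPM or less. Csf3r and Cxcr2, receptors of neutrophils, were at 3.63 and 1.01 TPM in selenium 3 and 3.76 and 1.23 TPM in control 5, against at most 0.71 and 0.22 TPM in the others, while Retnlg, another neutrophil gene, was at 0.50 and 0.25 TPM, against at most 0.55 TPM. Markers of other cells were high too: Spp1, the osteopontin gene from the cholangiocyte list, was at 129 and 266 TPM, against at most 35.0 TPM, Sox9 at 2.54 and 2.74 TPM, against at most 1.86 TPM, and Cd68, a macrophage gene, at 24.0 and 26.5 TPM, against at most 7.70 TPM, each in selenium 3 and control 5 against the other 10. With both libraries left out, an alternative added after the data were seen, the log2 change was -0.97 for Jun, -0.56 for Myc, -0.43 for Egr1 and -0.39 for Klf6 (unadjusted p = 0.00595, 0.00726, 0.0197 and 0.0476, adjusted p = 0.189, 0.197, 0.266 and 0.366 in limma), and 0 of the 8 passed. Their part in the pattern of Junb, Egr1 and Klf6 across libraries was not tested.

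Pooled over the 12 livers, most pairs of members had a positive correlation. Of the 36 pairs among the 9 members other than Fosb, 34 had a positive Pearson r on log2(TPM + 1), with a median of 0.47. Among the 28 pairs of the 8 members past the filter, 92.9% were positive with a median of 0.47, against 60.7% positive and a median of 0.11 over all pairs of tested genes. Within groups of 6, r was negative for 3 of the 36 pairs in selenium livers (median 0.64) and for 14 of the 36 in control livers (median 0.23), and this difference was not tested. Fos and Klf6 were the closest pair (r = 0.91, permutation p = 9e-05, adjusted p = 0.00405 over all 45 pairs; Spearman coefficient 0.83, permutation p = 0.00156, adjusted p = 0.0531). Without control 6 and selenium 3, the libraries farthest from the median of Fos, r was 0.87 (permutation p = 0.00125), after centring within groups it was 0.94, and it was 0.98 in selenium and 0.84 in control livers. Junb and Atf3 followed (r = 0.86, permutation p = 0.00048, adjusted p = 0.0108; Spearman coefficient 0.81, permutation p = 0.00236, adjusted p = 0.0531), with r = 0.74 without selenium 3 and control 5 (permutation p = 0.0146). Fos with Egr1, Junb with Klf6 and Egr1 with Myc had r of 0.76, 0.75 and 0.74 (adjusted permutation p = 0.0565, 0.0565 and 0.0605) and Spearman coefficients of 0.73, 0.67 and 0.56 (adjusted permutation p = 0.117, 0.134 and 0.288). The relation of Egr1 with Myc rested on selenium 1 and 5, without which r was 0.37, and that of Junb with Klf6 on selenium 3 and control 5, without which r was 0.45. The lowest r were those of Ier2 with Klf6 (-0.08) and Junb (-0.07) and of Jund with Klf6 (0.02) and Fos (0.04), with Spearman coefficients of 0.07, 0.13, 0.23 and 0 (raw permutation p from 0.472 to 1.0 over both measures). Fos and Jun, the classic AP-1 pair, had an r of 0.38 (permutation p = 0.224) and a Spearman coefficient of 0.46 (permutation p = 0.137), with r of 0.73 in selenium and -0.57 in control livers (n = 6 each, described without a test).

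**Figure D5:**
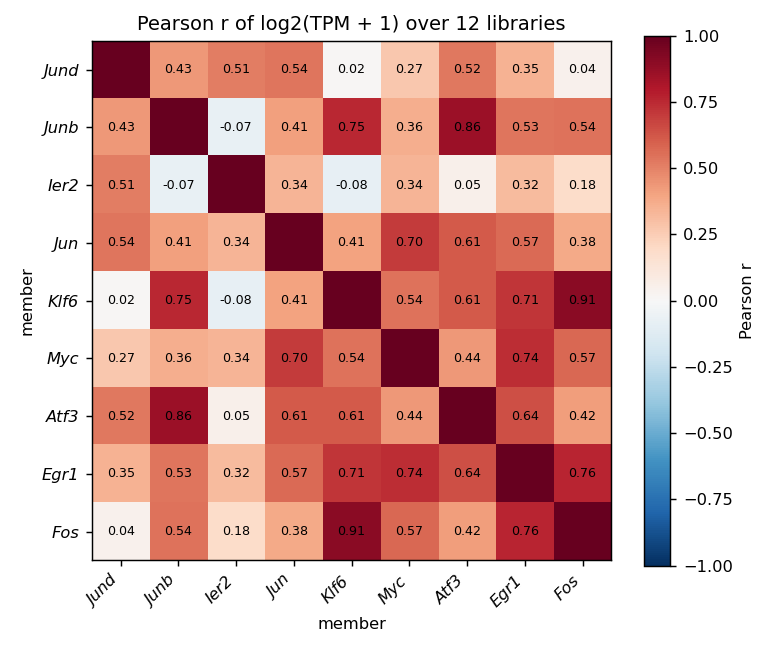
Pearson r of log2(TPM + 1) over the 12 libraries for each pair of 9 members (rows and columns, in order of level; Fosb left out). The darkest red cells off the diagonal are Fos with Klf6 (0.91) and Junb with Atf3 (0.86).

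The tested genes most like each member over the 12 libraries were found by Pearson r, as a description without a test. Gng12, a G protein subunit, was among the genes most like Junb (0.90). Klf6 was most like Msn, the membrane-cytoskeleton linker moesin (0.95), and Hnrnpll (0.94), and Atf3 like Slc45a4 (0.93) and Saa1 (0.91). Myc was closest to Net1 (0.96), and Exosc9, a subunit of the RNA exosome (0.95), Jun to Bcl10 (0.91) and Kctd13 (0.88), and Egr1 to Ssh3 (0.95) and Chfr (0.94). Jund was most like Get3 (0.96) and Tmem234 (0.95), and Ier2 like H2bc12, a histone gene (0.95), and Slc4a1ap (0.91).

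None of the genes in the lists around these factors passed over all genes in the comparison as planned, and the lists leaned in different directions. Of 19 tested immediate early regulators outside the 10, 0 were called and 12 were negative (median log2 change -0.19, against -0.03 over all tested genes). Cebpb, a liver bZIP factor of the acute phase, averaged 10.2 ± 3.63 TPM in selenium and 21.3 ± 5.14 TPM in control livers, and every selenium liver (at most 14.6 TPM) lay below every control (at least 15.8 TPM), with a log2 change of -1.04 (limma adjusted p = 0.0671). Ier5 and Id1 had changes of -0.63 and -0.58 (limma adjusted p = 0.186 and 0.239). Among 17 tested early feedback genes, 14 were negative with a median of -0.19, and the 3 with the smallest p were Dusp1, Gadd45g and Zfp36 (log2 change -1.19, -1.73 and -0.83, limma adjusted p = 0.0717, 0.0927 and 0.116). These 3 encode a MAP kinase phosphatase, a stress sensor and an mRNA decay factor.

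AP-1 partners and related bZIP factors were split, with 8 of 19 positive and 11 negative, and a median of -0.01. Mafg, a small MAF partner, averaged 5.34 ± 0.757 TPM in selenium and 9.16 ± 1.74 TPM in control livers, and the groups touched without crossing (at most 6.25 and at least 6.29 TPM). Its log2 change of -0.67 lay at the threshold (limma adjusted p = 0.0514) and passed with a pseudocount of 0.1, a filter of 5 TPM, TPM rescaled without mitochondrial genes, robust empirical Bayes or without control 1 or 6, with adjusted p from 0.0316 to 0.0481. Those settings called from 19 (without control 1) to 191 genes (rescaled TPM) in all. Creb3l3, a liver bZIP factor of the endoplasmic reticulum, had a change of 0.39 (limma adjusted p = 0.176). Of SRF, its ternary complex partners and its cofactors, 3 of 6 passed the filter. Elk4, which binds DNA together with SRF, averaged 9.17 ± 1.34 TPM in selenium and 12.9 ± 1.19 TPM in control livers (log2 change -0.45, limma adjusted p = 0.0762), and Srf and Mrtfb had changes of 0.13 and -0.13. Upstream, 17 of 22 genes of the MAP kinase cascade were positive with a median of 0.09, those with the smallest p being Egfr, the EGF receptor (0.48, limma adjusted p = 0.195), Shc1 (0.25) and Mapkapk2 (0.30), and 0 were called.

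Around MYC, 0 of 7 network genes and 0 of 15 target genes were called. Mlxipl, the glucose-sensing factor ChREBP of the same network, averaged 9.99 ± 2.19 TPM in selenium and 17.6 ± 5.40 TPM in control livers (log2 change -0.73, limma adjusted p = 0.0928). Mxd4, a MAX partner that opposes MYC, had a change of 0.39, and Mycl -0.25. Among the targets, 9 of 15 were positive with a median of 0.02. Ncl, the nucleolar protein nucleolin, had a change of -0.74, Ldha, lactate dehydrogenase A, 0.84 and Odc1, ornithine decarboxylase, 0.43 (limma adjusted p = 0.0671, 0.0762 and 0.231). Other KLF genes had 6 of 8 negative, with a median of -0.16, among them Klf15 (-0.46), Klf2 (-0.36) and Klf10 (0.34). Of the 15 tested genes of protein and mRNA turnover, 9 were negative with a median of -0.16. Zfp36 again had the smallest p, followed by Cnot1, the scaffold of the deadenylase complex (0.66), and Fbxw7, a ubiquitin ligase for MYC and JUN (-0.30, limma adjusted p = 0.241). Around ATF3, 5 of 9 integrated stress genes were positive with a median of 0.03, with Atf5, Herpud1 and Eif2ak3 at 0.34, 0.75 and 0.27.

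Several of these pathway genes passed limma under another setting. With TPM rescaled without mitochondrial-encoded genes, Cebpb, Elk4, Dusp1 and Ncl passed (adjusted p = 0.0359, 0.0364, 0.0393 and 0.0386). That setting called 191 of 10319 genes, 185 of them lower with selenium, against 33 of 9980 in the comparison as planned. Its median log2 change over all genes was -0.11, against -0.03 as planned, and these 4 genes were lower too. Without control 6, Elk4, Ncl and Ldha passed (adjusted p = 0.0449, 0.0440 and 0.0496 in limma), as did 171 genes in all, 115 lower and 56 higher. Ldha also passed after median-of-ratios scaling and in the 8 libraries with low Dbp (adjusted p = 0.0486 and 0.0483 in limma). Those settings called 31 and 47 genes in all, 7 and 34 of them higher.

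Markers of other liver cells are given because these factors are made by several cell types. Kupffer cell markers summed to 72.9 to 337 TPM in selenium and 83.6 to 183 TPM in control livers, with selenium 3 the highest and selenium 5 the lowest library. All 11 had a positive log2 change, and the sum differed by 0.43 (exact permutation p = 0.251, n = 6 each). Stellate markers summed to 52.8 to 115 TPM in selenium and 85.7 to 134 TPM in control livers, a log2 difference of -0.47 (exact permutation p = 0.0498), with all 6 tested genes negative, and endothelial markers to 30.3 to 55.0 TPM in selenium and 26.5 to 64.7 TPM in control livers (exact permutation p = 0.238). T, NK and B cell markers summed to only 4.75 to 9.95 TPM in selenium and 6.68 to 9.96 TPM in control livers, a log2 difference of -0.39 (exact permutation p = 0.0411). Only 1 of these 10 markers passed the low-value filter, with a log2 change of -0.02. The p of the marker sums were not adjusted over the 8 lists. Cholangiocyte, erythroid and hepatocyte markers had exact permutation p of 0.383, 0.530 and 0.405. Across the 8 marker lists 0 genes passed limma over all genes, 0 markers were at 0 in every library, and the part of other cell types in the levels of these factors was not tested.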

How the data were processed

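Liver RNA was measured by RNA sequencing in 12 samples, 6 per group, grouped by the sample titles. The submitters' processing notes name GRCm39 as build and DESeq2, RSEM 1.2.8 and HISAT2 2.1.0 as tools; no annotation is named there. The authors deposited TPM per gene and library, and their series table equalled the single-library tables in 100% of values. The authors also deposited log2 fold changes, control divided by selenium, with raw and adjusted p-values. Depth cannot be had from TPM, so no count test was run.

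Genes with at least 1 TPM in 6 of 12 libraries (9980 of 57010) were tested on log2(TPM + 1) in R 4.3.3 with limma 3.58.1 (trended empirical Bayes, two-sided tests, no covariates), Benjamini-Hochberg adjustment over all 9980 and a threshold of 0.05. The procedure was tested on simulated data. Levels and ratios were compared with an exact permutation test over all 924 labellings, and correlations with 100000 permutations (20000 without 2 libraries). Promoters came from RefSeq's table on GRCm38.p6, and overlapping genes from GENCODE M21, on another build than the files. Per the replicate numbers in the titles, the deviations of same-numbered libraries correlated by -0.14 to 0.11. Libraries of different number were not correlated for comparison, so this cannot show whether the numbers pair samples. The main fit used no pairing. The named genes are the 10 members, the 3 tested genes with the smallest p in each further pathway list and the 2 genes most like each member, of which some are not reported here; Dbp, Saa1, Lcn2, S100a9, Ly6g, Csf3r, Cxcr2, Retnlg, Spp1, Sox9, Cd68, Nr1d1, Malat1, Prdx2 and Junos were named after their values were seen. Members, lists and the split by Dbp were chosen with earlier results of these data known, so none of them is independent support. Pseudocounts, filters, scalings, empirical Bayes settings, a replicate block, leaving out libraries and the Dbp and Saa1 splits were tried as alternatives. Figures were drawn with matplotlib 3.10.9.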

Additional observations from a re-analysis of the deposited data

Results flagged for a closer look

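By Dixon's test on untransformed TPM, 5 single values stood apart from the other libraries of their group, out of 20 groups of 6 checked. Of these, 4 were in selenium 3: Fos at 1.34 TPM, with the next selenium library at 0.44 TPM, Junb at 11.19 TPM (next 6.80 TPM), Atf3 at 3.68 TPM (next 1.5 TPM) and Klf6 at 4.28 TPM (next 1.52 TPM). The last was Fosb at 0.15 TPM in selenium 6, with the next at 0.04 TPM. All 5 were the highest value of their group. By chance the test flags about 1 in 20 groups when values are normally distributed and groups are independent. Several members varied together and TPM was not transformed, so the count cannot be read against that rate.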

How the results depend on the processing

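No member passed the threshold under any alternative run. The log2 changes of Fos, Jun, Egr1, Ier2 and Myc were negative under every alternative that measured them. That of Junb, near 0, was -0.074 with TPM rescaled without mitochondrial-encoded genes, -0.60 among libraries with high Dbp and -0.0048 with both high-Saa1 libraries left out, and ran from -0.13 to 0.13 when 1 library was left out. Jund ran from -0.27 to 0.056 with 1 library left out and was 0.13 among libraries with low Dbp. Atf3 ran from -0.26 to 0.10 with 1 library left out, and was 0.042 after quantile normalization and 0.23 with low Dbp. Klf6 was 0.14 and the median of the 8 tested members 0.024 with low Dbp. Fosb ran from -0.015 to 0.025 with 1 library left out and was -0.014 with high Dbp. Among pathway genes the sign turned for Mrtfb (0.0046) with low Dbp and for Srf (-0.13), Shc1 (-0.12), Mapkapk2 (-0.15), Klf10 (-0.19), Atf5 (-0.10), Herpud1 (-0.26) and Eif2ak3 (-0.17) with high Dbp. The cause was not tested. Over these alternatives the adjusted p ran from 0.0684 to 0.732 for Myc, 0.104 to 0.732 for Jun, 0.215 to 0.875 for Fos, 0.165 to 0.827 for Egr1, 0.218 to 0.846 for Klf6 and 0.0316 to 0.618 for Mafg.

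The count of 33 genes (2 higher, 31 lower) was 1 without a filter, 12 after quantile normalization (2 higher, 10 lower), 31 after median-of-ratios scaling (7 higher, 24 lower), 191 with TPM rescaled without mitochondrial-encoded genes (6 higher, 185 lower), 56 with robust empirical Bayes, 0 with the exact permutation test per gene, 0 with high Dbp (4 libraries), 47 with low Dbp (34 higher, 13 lower), 7 with both high-Saa1 libraries left out and 7 (without control 2) to 171 (without control 6) with 1 library left out. Only without control 3 (22) or selenium 6 (31) did it stay within 1.5 times. With the replicate number as a block it was 3, and the block changed the call of no member. The unadjusted limma p was 0.00183 for Jun with the block and 0.0597 without it (adjusted p = 0.104 and 0.295). For Myc it was 0.0120 with the block and 0.00415 without it. Of the 45 member pairs, 2 passed, against 0 by Spearman, 0 without the 2 farthest libraries, 3 centred within groups and 4 with a pseudocount of 0.1. TPM carries no depth, so no counting error can be given for the members near or under 1 TPM.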
